A study of Rattus norvegicus with 4 samples.

Results

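The genes described here are the Notch receptors Notch1, Notch2 and Notch3, the ligands Dll1, Jag1 and Jag2, and the target genes Hes1 and Hes5. They were chosen by name, and every array probe whose transcript accession belonged to one of them was taken. Of these 8 genes, 6 had a named probe, 1 each, among 8927 genes named on the arrays. Notch1 and Jag2 had none, so no level is given for them. RNA came from cultured cells of the Fisher 344 rat in 4 groups: neural stem cells from the hippocampus (HPC NSC), neural stem cells from the olfactory bulb (OB NSC), and the neurons derived from each of these cultures (HPC neurons and OB neurons). The series title names adult tissue and insulin biosynthesis. Each group was 1 pool of total RNA from 3 separate experiments, read on 1 Agilent 1-colour array, so no value carries a spread between cultures. The labels used here do not say how the neurons were made or how long they were cultured.

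Notch receptors sit in the cell membrane and are switched on by Delta-like (Dll) and Jagged (Jag) ligands on neighbouring cells. Proteases then release the intracellular domain of the receptor, which joins the DNA-binding protein RBPJ in the nucleus and turns on Hes and Hey genes. Hes proteins repress proneural genes, and in the nervous system the pathway is known for holding neural stem cells back from becoming neurons. Notch3 is also known from pericytes and smooth muscle cells, and Jag1 and Notch2 from many tissues.

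Levels are log2 of the processed spot signal minus the 75th percentile of the array, so 0 is the 75th percentile and 1 unit is 2-fold. A spot counts as detected when the scanner software marked it well above background. Each value has the software's own error estimate, which covers the spot and not the cultures; for the detected spots of these genes it lay between 10% and 13.3% of the signal. Arrays of the same state shared a slide, with both NSC arrays on slide 1 and both neuron arrays on slide 2, so state and slide cannot be told apart. Between 60.2% and 74.0% of probes were detected per array. Levels of different genes are not set against each other, because each probe has its own response.

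The labels were checked against marker genes. As a list, the neuron markers did not bear out the label neurons, which is kept here only as the name of those arrays. On the arrays labelled neurons, the summed level of 11 neuron markers was 8.42 and 3.90 times the 75th percentile, against 50.3 and 43.8 times on the NSC arrays (HPC before OB). Members of this list differed in direction: 2 were higher and 4 lower in HPC neurons, and 3 higher and 7 lower in OB neurons. The list medians were -0.37 and -2.74 log2 units, beside -0.32 and 0.07 for all genes. The 2 neuron markers higher in HPC neurons were Snap25, a gene of synaptic vesicle fusion, and Stmn2, a gene of growing axons. Snap25 was 15.6-fold and 8.43-fold higher. Stmn2 was at least 56.9-fold and 32.1-fold higher, but was not detected on the NSC arrays, so it could not be called lower. The synaptic vesicle gene Syt1 went the other way, being detected on the NSC arrays and not on the neuron arrays. All 8 measured pericyte, smooth muscle and fibroblast markers were detected on the neuron arrays, with summed levels of 390.4 and 550.1 times the 75th percentile, against 0.394 and 0.272 times on the NSC arrays, where 6 of the 8 were not detected. Of 8 astrocyte markers, 4 were detected on each NSC array and 8 on each neuron array. Their summed levels were 41.9 and 31.9 against 120.0 and 104 times the 75th percentile. By 2-fold, 6 were higher and 1 lower in HPC neurons, and 7 were higher and 1 lower in OB neurons. The summed level of 6 cycling cell markers was 289 and 236 times the 75th percentile on the NSC arrays and 38.8 and 39.0 times on the neuron arrays. The 6 endothelial markers summed to 0.370 and 0.299 times on the NSC arrays and 6.94 and 4.21 times on the neuron arrays, and Pecam1 was detected on none of the 4. The 7 microglia and macrophage markers summed to 0.797 and 0.826 against 2.36 and 5.39 times, with Itgam and Cx3cr1 not detected on any array. The 7 measured stem cell markers summed to 255 and 207 times on the NSC arrays and 213 and 239 times on the neuron arrays, with 3 members higher and 2 lower in each source. Among them Prom1 was not detected on the NSC arrays and was at least 121-fold and 122-fold higher in neurons, Egfr was 2.99-fold and 9.01-fold higher, and Msi1 was 2.40-fold and 3.52-fold lower. The 7 oligodendrocyte markers summed to 309 and 205 against 39.3 and 50.01 times. By 2-fold, 0 of 6 compared were higher and 3 lower in HPC neurons, and 2 of 7 were higher and 4 lower in OB neurons. A sum weighs the brightest probes most. These markers differ between the same arrays as the Notch genes, and their part in the differences below was not tested. In pooled RNA, fewer cells of a type and less RNA per cell cannot be told apart.

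**Figure D1:**
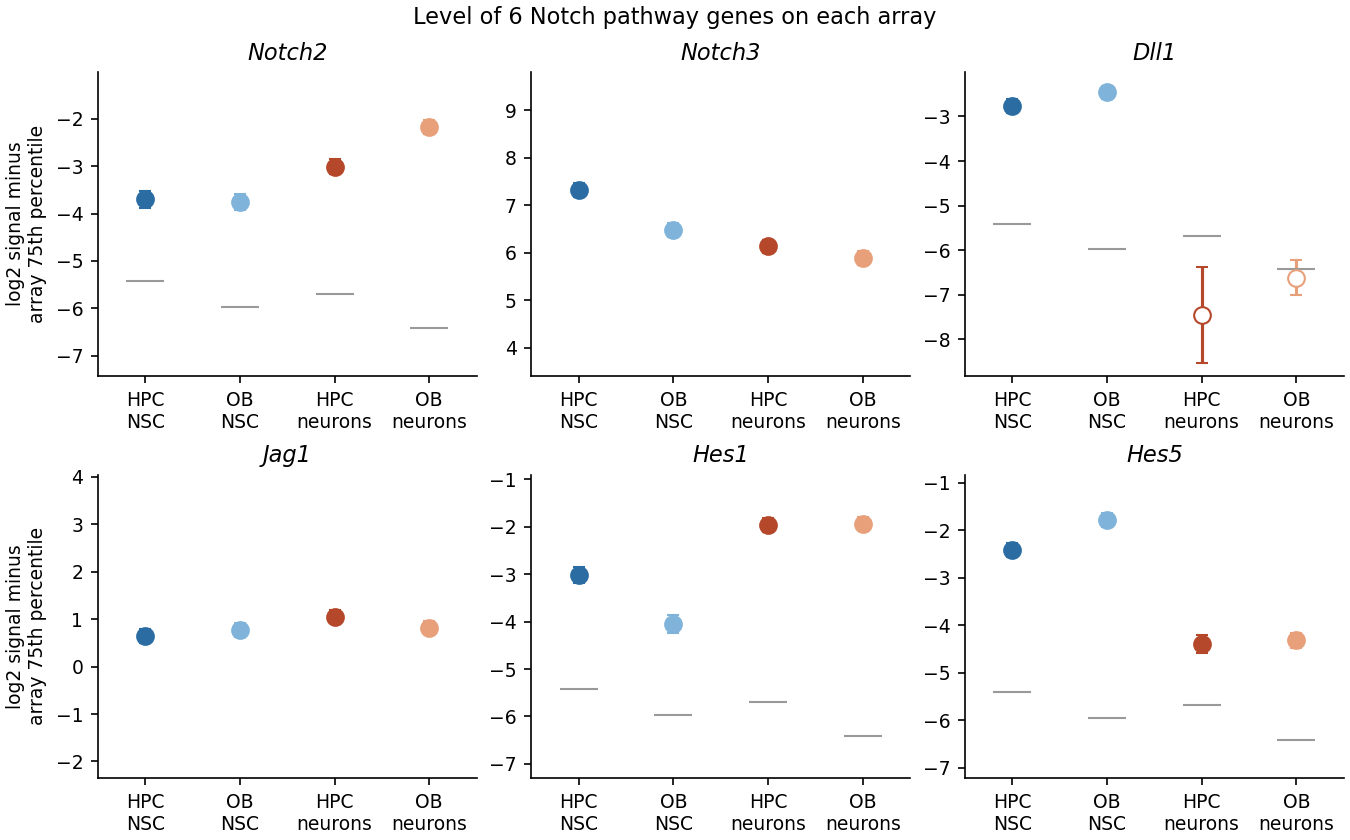
Level of each Notch gene on the 4 arrays, as log2 processed signal minus the 75th percentile of the array. Filled points were detected and open points were not, bars are the scanner software's error for the spot, and grey dashes mark the lowest detected signal on each array where it falls within the axis. Dll1, Hes5 and Notch3 are lower on both neuron arrays than on either NSC array. Hes1, Notch2 and Jag1 are higher on both, though Jag1 varies by only 0.41 log2 units. The share of all genes whose neuron arrays both lie on 1 side of the NSC arrays was not counted.

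Among the ligands, Dll1 had the largest difference of the 6 genes. Dll1 is the Delta-like ligand that committed neural progenitors show to their neighbours. Its signal was 71.9 on the HPC NSC array and 149 on the OB NSC array, and 4.62 and 7.39 on the HPC and OB neuron arrays, where the spot was not detected. Dll1 was therefore detected on both NSC arrays and on neither neuron array. Against the lowest detected signal of each neuron array, Dll1 was at least 7.61-fold lower in HPC neurons and at least 15.5-fold lower in OB neurons. No rank among all genes is given, because Dll1 entered these comparisons through the NSC arrays alone and could not be called higher. The bounds do not allow for the scanner error of the neuron spots, 74.5% of the signal in HPC and 27.0% in OB. With normexp background correction the differences were smaller, at -1.73 and -1.51 log2 units. Between the NSC arrays Dll1 differed by 0.30 log2 units (OB minus HPC), less than 2 scanner errors of 0.21 each, and between the neuron arrays no fold can be given.

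Jag1, a Jagged ligand also made by astrocytes and vascular cells, passed 2-fold in no comparison. Its signal was 761 in HPC NSC, 1395 in OB NSC, 1671 in HPC neurons and 1284 in OB neurons. After scaling, its levels were 0.64, 0.77, 1.05 and 0.82, a range of 1.33-fold. No neighbouring pair in the order of its 4 levels was more than 2 scanner errors apart. The state difference was 0.41 in hippocampal cells and 0.05 in bulb cells. These became -0.05 and -0.49 with median scaling, and 0.83 and -0.69 with scaling to the spike-in controls. Of the 2 ligands, Dll1 was below detection on both neuron arrays and Jag1 was detected on all 4.

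Each of the receptors passed 2-fold in 1 source only, Notch3 as lower in HPC neurons and Notch2 as higher in OB neurons. The signal of Notch3 was 77997 in HPC NSC, 73172 in OB NSC, 56496 in HPC neurons and 42826 in OB neurons, with no saturated spot. Its levels of 7.32, 6.49, 6.13 and 5.88 put HPC NSC above the other 3 arrays, and the gaps from OB NSC to HPC neurons (0.35) and from HPC to OB neurons (0.25) were each below 2 scanner errors, 1 error being 0.20. The state difference was -1.19 in hippocampal cells, a 2.29-fold lower level. In bulb cells it was -0.60, below the 2-fold limit but past 2 scanner errors. With quantile normalization these values were -0.23 and -0.12, and with spike-in scaling the calls changed sources, at -0.77 and -1.34.

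The signal of Notch2 was low on every array, at 37.4 in HPC NSC, 60.2 in OB NSC, 99.7 in HPC neurons and 160.0 in OB neurons, which is 3.27, 4.50, 6.38 and 18.8 times the lowest detected signal of each array. Its levels were -3.70, -3.76, -3.01 and -2.18. The NSC arrays were alike within 2 scanner errors (gap 0.06, error 0.25), and both neuron arrays were above them. Notch2 was 2.99-fold higher in OB neurons than in OB NSC, and 1.61-fold higher in hippocampal cells, which is under 2-fold. With spike-in scaling the call moved from the bulb (0.84 log2 units) to the hippocampus (1.11).

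The target genes Hes1 and Hes5, which both encode basic helix-loop-helix repressors, went opposite ways. Hes1 had a signal of 59.9 in HPC NSC, 49.0 in OB NSC, 206 in HPC neurons and 189.8 in OB neurons. Its levels were -3.02, -4.06, -1.97 and -1.93, so both neuron arrays were high, nearly equal (gap 0.03, error 0.21) and above either NSC array. The state difference was 1.06 (2.08-fold) for the hippocampus and 2.12 (4.36-fold) for the bulb. Median, quantile and spike-in scaling and normexp kept the bulb value beyond 2-fold (1.24 to 1.68). The other alternatives could not change it, as Hes1 has 1 probe and was detected on all 4 arrays. The hippocampal value came to 0.60 with median scaling, 0.69 with quantile normalization and 0.30 with normexp background correction, all under 2-fold.

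Hes5 had a signal of 91.2 in HPC NSC, 237 in OB NSC, 38.2 in HPC neurons and 36.4 in OB neurons. Its levels were -2.42, -1.78, -4.40 and -4.32. The NSC arrays were high and the neuron arrays low, with the 2 neuron arrays apart by less than 2 scanner errors (gap 0.08, error 0.25). Hes5 was 3.95-fold lower in HPC neurons and 5.79-fold lower in OB neurons, at percentiles 6.55 and 3.84 of all genes compared. It remained detected on the neuron arrays at 2.44 and 4.27 times their lowest detected signal. Under median, quantile and spike-in scaling and normexp its state difference stayed beyond 2-fold. It lay between -2.44 and -1.37 in hippocampal cells and between -3.28 and -1.51 in bulb cells. The other alternatives could not change it, because Hes5 has 1 probe and was detected on all 4 arrays.

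**Figure D2:**
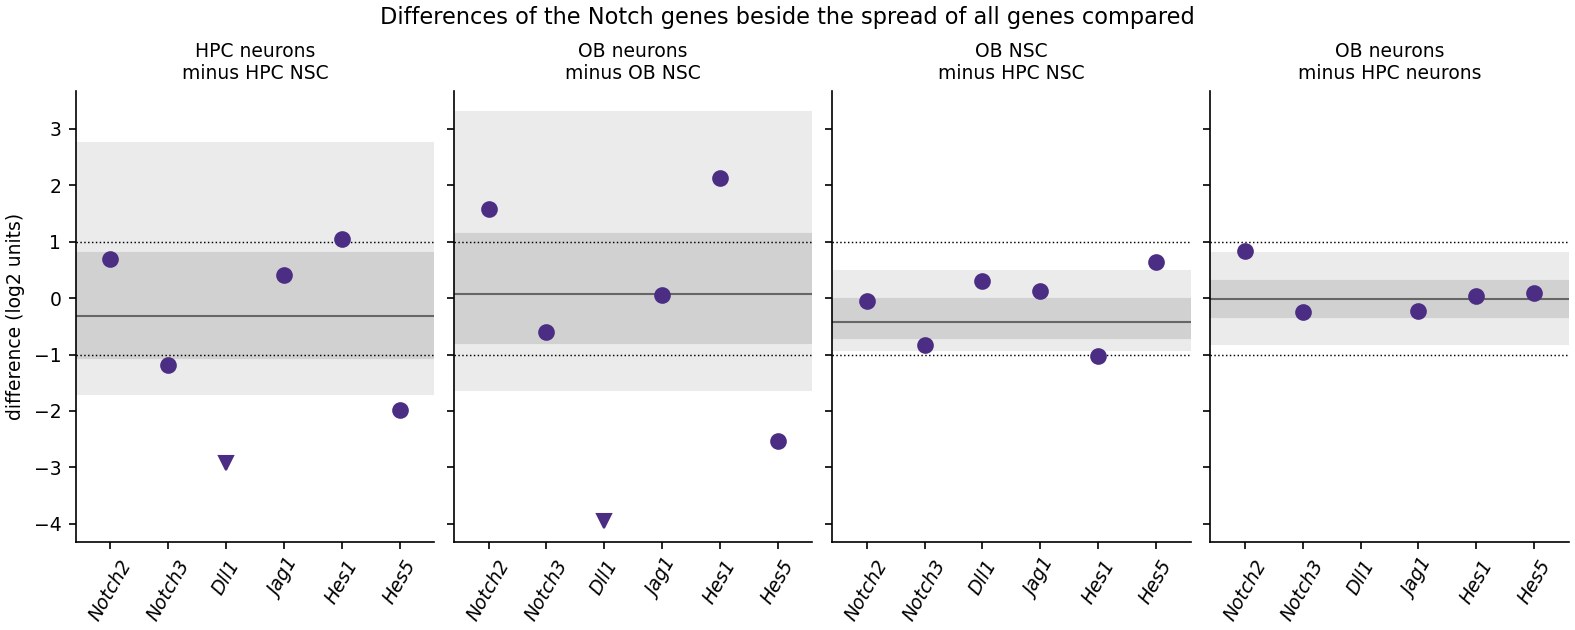
Log2 difference of each Notch gene in the 4 comparisons. Triangles are bounds, the dark and light bands hold the middle 50% and 80% of all genes compared, the grey line is their median and dotted lines mark 2-fold. In both comparisons of neurons with NSC, Hes5 lies below the light band, and Hes1 and Notch2 lie inside it. The bounds of Dll1 also lie below it, but their direction was fixed by detection on the NSC arrays alone.

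Counted together, 1 of the 6 genes was higher and 3 were lower by 2-fold or more in HPC neurons, where 21.9% of 6656 genes were higher and 26.8% lower. In OB neurons 2 were higher and 2 lower, where 26.9% of 7024 genes were higher and 20% lower. The medians of the 6 genes were -0.39 and -0.28, beside -0.32 and 0.07 for all genes. Because 48.7% and 46.8% of all genes passed 2-fold, these counts are near the background. In both sources Hes1 was higher, and Dll1 and Hes5 were lower. Over 6567 genes, 18.5% were higher in both and 16.8% were lower in both. Dll1, detected on the NSC arrays alone, could only count as lower or not called.

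The only test the design allows was a limma fit over all 4 arrays with terms for source and state. Its error is the disagreement between the sources, drawn towards that of all genes (1 residual and 5.49 prior degrees of freedom). The SE of a gene therefore rests mostly on the other genes. The fit cannot separate state from slide. In it, 31.6% of 7113 genes passed an adjusted p of 0.05 for state. Hes5 (-2.26 ± 0.44, SE, limma adjusted p = 0.00957) and Hes1 (1.59 ± 0.47, limma adjusted p = 0.0445) passed. Notch2 (1.13 ± 0.46, limma adjusted p = 0.105), Notch3 (-0.90 ± 0.44, limma adjusted p = 0.165) and Jag1 (0.23 ± 0.43, limma adjusted p = 0.713) did not. For Dll1 no test is given, because its signals on both neuron arrays were at background and it entered the fit through the NSC arrays alone. The limma adjusted p of Hes1 lay between 0.00414 and 0.2 over the 6 alternatives and missed the threshold in 5 of them. That of Hes5 lay between 2.12e-05 and 0.028 and passed in all 6.

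**Figure D3:**
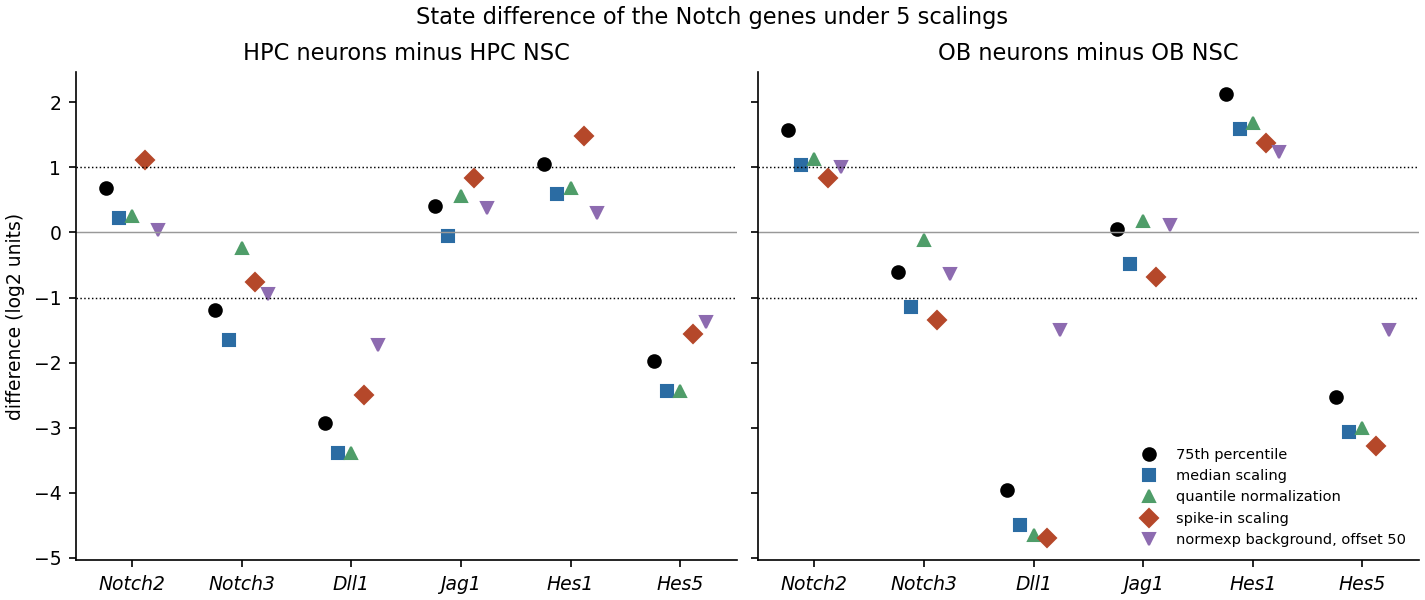
Log2 state difference of each Notch gene under 5 ways of scaling or background correction, in hippocampal cells (left) and olfactory bulb cells (right), with dotted lines at 2-fold. Dll1 and Hes5 stay beyond 2-fold under all 5, while Hes1 in hippocampal cells ranges from 0.30 to 1.48 and crosses the limit.

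Between the sources, the Notch genes differed less, as did all genes. Of all genes, 11.1% in NSC and 15.7% in neurons passed 2-fold between sources, against 48.7% and 46.8% between states. Sources were compared within a slide and states across slides. In OB NSC, 1 of 6 genes, Hes1, was lower than in HPC NSC by 2-fold or more and none was higher, where 6.97% of 6030 genes were lower and 4.16% higher (11.1% either way). Hes1 was 2.05-fold lower there (log2 -1.03, scanner error 0.25), and Hes5 was 1.55-fold higher (log2 0.63, scanner error 0.21). Notch3 was 1.79-fold lower, and Notch2, Dll1 and Jag1 differed by -0.06, 0.30 and 0.13 log2 units, each within 2 scanner errors. The median of all genes was -0.43, and relative to it Hes5 lay at percentile 92.5 and Hes1 at percentile 6.20. With spike-in scaling the call of Hes1 was lost (-0.30), and Dll1 (1.04) and Hes5 (1.37) were called higher instead.

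In neurons, none of the 5 genes compared differed by 2-fold between the sources, where 7.66% of 7001 genes were higher and 8% lower in OB neurons (15.7% either way). Notch2 was 1.78-fold higher in OB neurons, at percentile 90.3. Hes1 (0.03), Hes5 (0.08), Jag1 (-0.23) and Notch3 (-0.25) each differed by less than 2 scanner errors. In the limma fit none of these 5 genes passed for source, and 0% of all genes passed. Their limma adjusted p values ran from 0.911 to 0.986, with 0 at an unadjusted p under 0.05. Dll1 is left out, because its spots on both neuron arrays were not detected. The count over all genes depends on the setting. For source, 48 genes passed under spike-in scaling, 69 under normexp and 82 among genes detected on all 4 arrays, none of them 1 of these 5 genes. The 95% intervals were wide, for example from -1.63 to 0.63 for Hes1 and from -0.69 to 1.41 for Hes5, and both reach beyond 2-fold.

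The state difference of the bulb minus that of the hippocampus was 1.07 log2 units for Hes1 and 0.89 for Notch2, whose differences were larger in the bulb. It was 0.59 for Notch3, which was less reduced in the bulb, -0.55 for Hes5 and -0.36 for Jag1. Over 5501 genes detected on all 4 arrays this difference of changes had a median of 0.34 and quartiles of -0.09 and 0.72. Hes1 lay at percentile 88.1 and Hes5 at percentile 12.9, both outside the quartiles. With spike-in scaling these values were -0.10 for Hes1, -0.27 for Notch2 and -0.57 for Notch3, so their sign rests on the scaling, and -1.72 for Hes5 and -1.52 for Jag1. The difference of changes was not tested, because 4 arrays leave no error for it.

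Promoter sequences were read for the 8 genes from RefSeq on the GRCr8 assembly, as windows from 250 bases before to 50 after the annotated start. TGGGAA, the core letters bound by RBPJ, and CACNAG, the N box bound by Hes proteins, were searched on both strands. The windows of Hes1, Hes5 and Dll1 are shown because these genes passed 2-fold in both sources and each window held 2 copies of TGGGAA. Capitals mark both motifs on either strand.
Hes1: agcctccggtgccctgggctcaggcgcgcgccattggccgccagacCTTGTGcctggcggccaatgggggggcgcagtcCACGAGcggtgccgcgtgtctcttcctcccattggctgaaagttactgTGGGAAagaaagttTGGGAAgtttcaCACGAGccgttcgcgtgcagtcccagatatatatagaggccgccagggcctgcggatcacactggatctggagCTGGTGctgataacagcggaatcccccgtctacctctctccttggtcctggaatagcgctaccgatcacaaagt
Hes5: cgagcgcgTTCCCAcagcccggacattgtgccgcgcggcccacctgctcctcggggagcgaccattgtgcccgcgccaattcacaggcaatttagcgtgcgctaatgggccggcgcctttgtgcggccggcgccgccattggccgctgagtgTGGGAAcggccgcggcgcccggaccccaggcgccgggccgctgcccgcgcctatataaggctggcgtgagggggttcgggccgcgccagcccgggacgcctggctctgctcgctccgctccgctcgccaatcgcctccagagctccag
Dll1: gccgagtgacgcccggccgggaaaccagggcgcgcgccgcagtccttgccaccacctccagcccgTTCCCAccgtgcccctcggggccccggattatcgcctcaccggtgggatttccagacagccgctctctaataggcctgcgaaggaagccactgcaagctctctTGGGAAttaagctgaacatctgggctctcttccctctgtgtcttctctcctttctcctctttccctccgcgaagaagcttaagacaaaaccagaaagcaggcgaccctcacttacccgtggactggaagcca
The Hes1 window lies at chr11:84212996-84213295 on the minus strand, that of Hes5 at chr5:170804327-170804626 on the plus strand and that of Dll1 at chr1:64993225-64993524 on the minus strand. In Hes1 both copies of TGGGAA lay on the gene strand, 123 and 109 bases before the start, with 4 N boxes around them. In Hes5 they lay 242 bases before the start on the opposite strand and 98 bases before it on the gene strand, and in Dll1 at 185 and 82 bases in the same arrangement. Neither the Hes5 nor the Dll1 window held CACNAG. Over 33365 promoter windows of the same length, 25.7% held TGGGAA, 3.85% held at least 2 copies and 43.1% held CACNAG. The longer form GTGGGAA, which contains TGGGAA, was in 6.29% of all windows, with 2 copies in that of Hes5 and 1 each in those of Hes1 and Dll1. Of the other 5 genes, Notch3 had 1 TGGGAA, 43 bases after the start, and 1 CACNAG, Notch1 had 4 CACNAG matches, and Notch2, Jag1 and Jag2 had neither. Genes with the same motif went opposite ways on the neuron arrays, Hes1 being higher and Hes5 and Dll1 lower. A match is a string of letters and does not show binding.

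**Figure D4:**
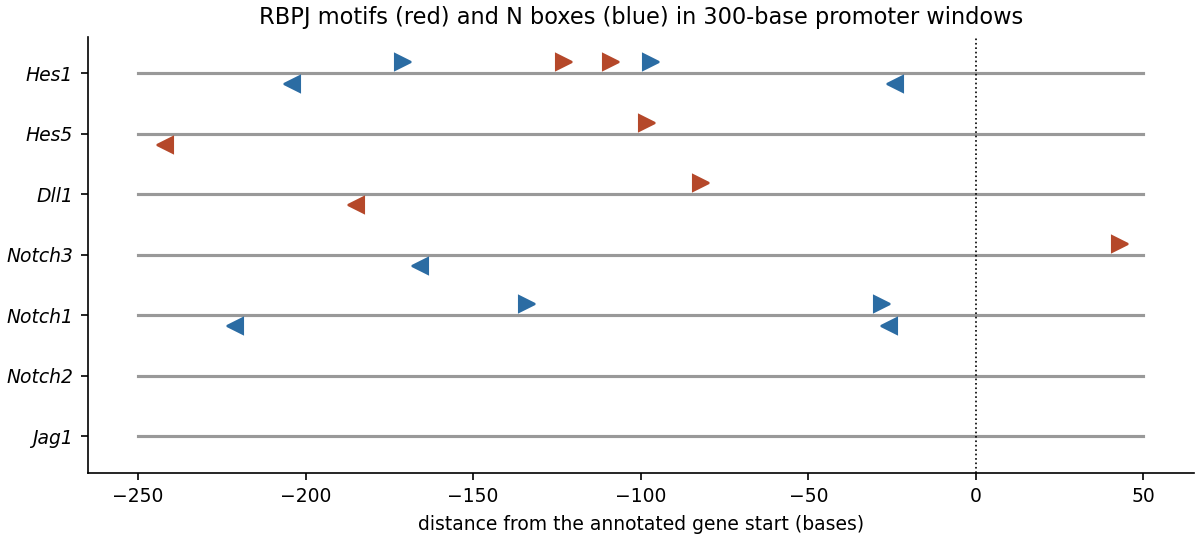
Position of RBPJ motifs (red) and N boxes (blue) in the promoter windows of 7 Notch genes, in bases from the annotated start; right-pointing marks lie on the gene strand and left-pointing marks on the opposite strand. Hes1, Hes5 and Dll1 each have 2 RBPJ motifs within 250 bases before the start, and Notch2 and Jag1 have no match.

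The other genes of the pathway were taken from a list of 76 genes by role, of which 36 had a named probe. Over this list, the 6 genes above included, 3 of 33 genes were higher and 9 lower in HPC neurons, and 7 of 34 were higher and 9 lower in OB neurons. Over all genes, 21.9% were higher and 26.8% lower in HPC neurons, and 26.9% and 20% in OB neurons. The list medians were -0.28 and -0.13, beside -0.32 and 0.07 for all genes. The limma fit called 2 of 34 genes higher and 7 lower for state, beside 19.5% of all genes higher and 12.1% lower; 2 of the 7, Dll1 and Neurod1, had spots that were not detected on the neuron arrays. Dlk1, Hes1 and Adam17 were higher by 2-fold in both sources, and Dll1, Dll3, Cntn1, Hes5, Mfng and Rfng were lower in both. The values below give the hippocampal difference before that of the bulb.

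The other Delta-like ligand measured, Dll3, which acts on Notch inside the cell that makes it, differed by -2.23 and -2.64 log2 units, like Dll1 in direction (limma adjusted p = 0.0067). Neurod1, a proneural gene, was at least 2.97-fold lower in OB neurons and was not detected on either hippocampal array. Of the noncanonical ligands, Dlk1 was higher by 2.17 and 4.65 (limma adjusted p = 0.00871), and the neuronal adhesion molecule Cntn1 was 7.98-fold and 91.6-fold lower (limma adjusted p = 0.00577). The Dlk1 levels in HPC and OB NSC, -4.64 and -5.77, were near the lowest detected levels of those arrays, -5.41 and -5.97. All 6 cycling cell markers were also lower, with list medians of -2.96 and -2.91, as were 26.8% and 20% of all genes. A link of Dll1 or Dll3 with these markers was not tested.

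Fringe enzymes add sugars to Notch receptors and so set which ligands they answer to, and the members of this group differed in direction. Mfng differed by -3.09 and -1.99 (limma adjusted p = 0.00833) and Rfng by -1.63 and -1.20 (limma adjusted p = 0.0481). Lfng differed by 0.46 in hippocampal cells and was higher by 1.75 in the bulb (limma adjusted p = 0.136). Pofut1, which adds the fucose that fringe enzymes extend, differed by -1.25 and -0.53 (limma adjusted p = 0.174).

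Of the 6 protease genes measured, 1 was higher in hippocampal cells, 2 in the bulb, and none was lower in either. Over all genes, 21.9% and 26.9% were higher and 26.8% and 20% lower. Adam17, one of the enzymes that cut the receptor outside the membrane, was higher by 1.32 and 1.23, and its limma adjusted p of 0.0625 missed the threshold. Psen2, a catalytic subunit of gamma-secretase, differed by 0.68 and 2.01 (limma adjusted p = 0.083), and the subunit gene Ncstn by 0.63 and 0.90 (limma adjusted p = 0.213). Psenen (-0.60 and -0.09) and Aph1a (-0.64 and -0.04), further subunits, were under 2-fold.

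Of the 2 coactivator genes measured none passed 2-fold, of 7 corepressor genes 1 and 2 were lower, and of 3 genes of receptor turnover none and 1 were higher. Over all genes, 26.8% and 20% were lower and 21.9% and 26.9% higher, so these counts are near the background. Crebbp (0.12 and 0.28) and Kat2b (0.63 and 0.76), which encode acetyltransferases, were under 2-fold in both sources. Among the corepressor genes, Ctbp1 differed by -1.39 and -0.89, Tle4 by -0.53 and -1.04, Tle2 by -0.48 and -1.22 and Tle3 by -0.70 and -0.16, and the limma fit called none of the 4 at limma adjusted p values of 0.0898, 0.212, 0.193 and 0.487. Numb, an inhibitor of Notch in dividing progenitors, differed by 0.06 and 0.74. The remaining receptor measured, Notch4, best known from endothelial cells, differed by -0.84 and -0.22 (limma adjusted p = 0.395), while the 5 endothelial markers compared had medians of 2.36 and 1.20. A link between Notch4 and these markers was not tested.

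Between sources, the pathway list had 0 genes higher and 3 of 34 lower in OB NSC, and 1 of 32 higher and 1 lower in OB neurons. Of all genes, 4.16% were higher and 6.97% lower in OB NSC, and 7.66% and 8% in OB neurons. In NSC, Dlk1 and Psen2 were lower in the bulb, at -1.13 and -1.08 log2 units, beside Hes1. The Dlk1 level in OB NSC was near the lowest detected signal. In neurons, Dlk1 (1.35) was higher in the bulb and Cntn1 was lower (-3.25). Hes3, a Hes gene of early neural progenitors, differed by -0.05 in NSC and by -0.73 in neurons (bulb minus hippocampus).

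**Figure D5:**
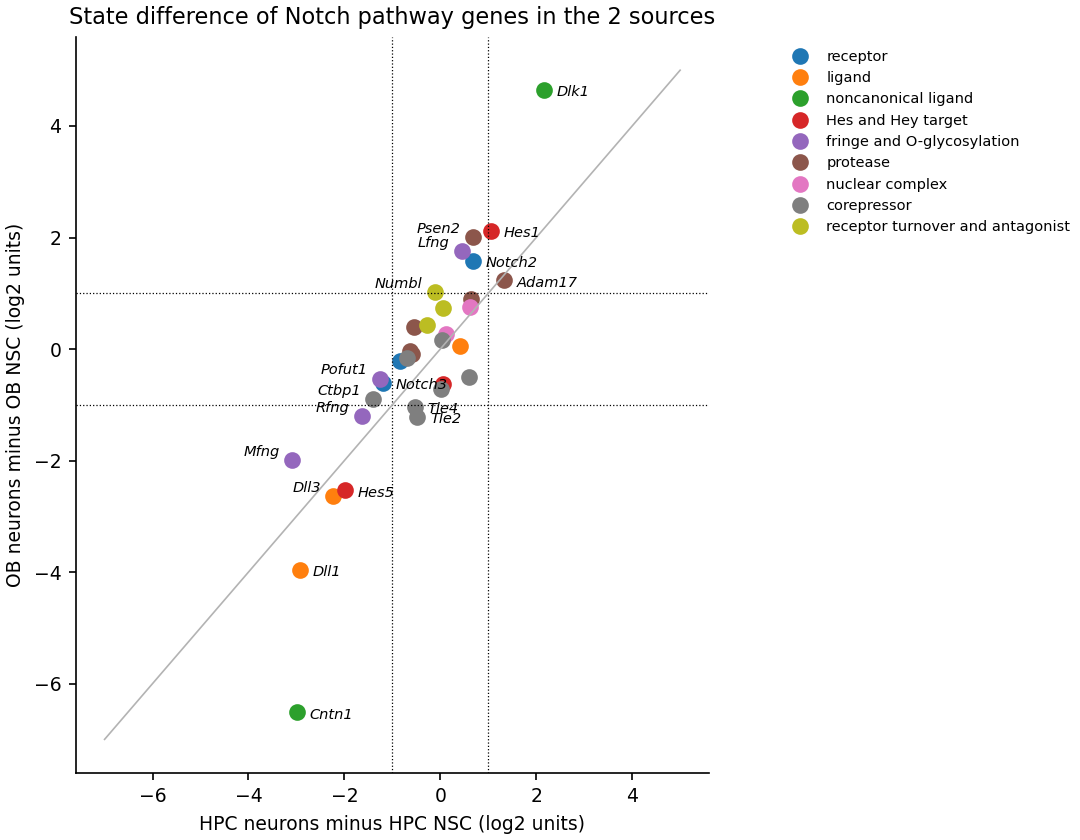
Log2 difference of neurons minus NSC in hippocampal cells (x axis) and olfactory bulb cells (y axis) for 33 Notch pathway genes, coloured by role, with bounds drawn at their bound. Dotted lines mark 2-fold, the grey line marks equal differences and genes beyond 2-fold in either source are named. Cntn1, Dll1, Dll3, Hes5, Mfng and Rfng lie below 2-fold in both sources.

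The genes with the most similar pattern were sought among genes detected on all 4 arrays and called in at least 1 comparison, by the Euclidean distance in log2 units between levels centred over the 4 arrays. Nearest to Hes5 were Acvr2b, an activin receptor gene (0.23), and Tmpo, a nuclear lamina gene (0.24). Nearest to Hes1 were Avil (0.14) and the NF-kappa-B inhibitor gene Nfkbie (0.18). Nearest to Notch3 were Zbtb17 (0.04) and Gpaa1 (0.04), and nearest to Notch2 were Stx17 (0.12) and Acot5 (0.14). Nearest to Jag1 were Prkd2 (0.51) and Tob1 (0.56); since candidates had to pass 2-fold in a comparison and Jag1 passed it in none, genes as flat as Jag1 were not among them. With 4 arrays, many genes can share a pattern, and the distances only describe these arrays.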

How the data were processed

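Cy3-labelled RNA of 4 pools was read on 1 Agilent rat array each. The authors used Agilent Feature Extraction 10.5.1.1, as the submitters' processing notes say. Per the file headers, the deposited intensity of a spot is background-subtracted and detrended within its array, with no scaling between arrays. The authors' value table held the same intensities (largest difference 0). Detection is the deposited flag of 0 or 1.

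Signals were converted to log2, averaged per probe and reduced by each array's 75th percentile, over 40758 probes, after 254 probes with outlier spots were left out. Accessions were matched to RefSeq on GRCr8 for names only: 10783 probes had 1 symbol, 0 several and 29975 none. The probe with the highest mean stood for a gene. Genes detected on 1 of 2 arrays were compared as bounds, with the dim side set to the lowest detected signal of its array or its own if higher. Such bounds do not allow for the spot error. A 2-fold difference was called. The fit over 4 arrays used limma 3.58.1 in R 4.3.3 (lmFit, eBayes) with Benjamini-Hochberg adjustment over 7113 genes, checked on simulated data. The number of arrays limits the precision.

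The genes, lists and alternatives were chosen with earlier results of these data known. Some genes of the pathway are not reported here. Named genes were all 6 measured ones, per pathway role up to 4 by the smaller of 2 same-way state differences and 2 by source difference, and the 2 nearest patterns each. Alternatives were median, quantile and spike-in scaling, normexp with an offset of 50 on median spot signals (no mean signal column was at hand), detection on all arrays, no filter, the mean over probes and the authors' table.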

Additional observations from a re-analysis of the deposited data

Results flagged for a closer look

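For 6 pathway genes the state difference had opposite signs in the 2 sources: the array of one source was higher in neurons and that of the other lower. The bulb difference minus the hippocampal difference was 1.13 for Numbl, 0.94 for Aph1b and 0.71 for Dtx4, and -1.09 for Ctbp2, -0.74 for Cir1 and -0.68 for Hes3, in log2 units. With 1 array a group, none of these differences was tested. Numbl in the bulb (1.02) was the 1 value among them past 2-fold. The opposite signs depend on the scaling: 2 of the 6 genes kept them with median scaling, 5 with quantile normalization, 4 with spike-in scaling and 4 with normexp. Ctbp2, a corepressor gene, kept them under all 4 of these, with 0.59 and -0.50 in the main values. None of the 6 measured Notch genes had opposite signs in the main values, while Jag1 did with spike-in scaling (0.83 and -0.69).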

How the results depend on the processing

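With 1 array a group there are no replicates to pair or leave out; the limma fit with source as a term sets the 2 sources side by side. Scaling moved the most values. The median difference of all genes in HPC and OB neurons was -0.32 and 0.07, and became -0.78 and -0.41 with median scaling, -0.13 and 0.00 with quantile normalization and 0.10 and -0.61 with spike-in scaling. Higher genes made up 44.9% and 57.4% of those called, which became 28.8% and 37.0% under median scaling, then 66.0% and 31.5% under spike-in scaling; between NSC arrays they were 37.4% and became 91.1% with spike-in scaling, and between neuron arrays 48.9% and 22.9%. Of the 6 genes, those higher in HPC neurons went from 1 to 0 with median scaling, quantile normalization and normexp, and to 2 with spike-in scaling, which left 1 of 2 higher in OB neurons. Those lower in OB neurons went from 2 to 1 among genes detected on all 4 arrays, which leaves out Dll1, and to 3 with median and spike-in scaling, which add Notch3. Those lower in HPC neurons went from 3 to 2 with quantile normalization, spike-in scaling, normexp and the filter on all 4 arrays. In OB NSC the 1 lower gene became 0 with normexp and spike-in scaling, and 2 became higher with the latter. For the pathway list in HPC neurons, 3 higher genes became 1 with median scaling and normexp and 8 with spike-in scaling, and 9 lower became 14 with median scaling. In OB neurons, 7 higher became 4 with spike-in scaling and normexp, and 9 lower became 15 with median and spike-in scaling. Between NSC, 0 higher became 8 and 3 lower became 0 with spike-in scaling, and 3 lower became 0 with normexp; between neurons, 1 higher became 0 and 1 lower became 3 with spike-in scaling. The number of the 6 genes that limma called for state stayed between 2 and 3, Dll1 with its undetected spots included, and the genes differed: Notch3 was called with median scaling (-1.40) and Notch2 among genes detected on all arrays (1.13). No called value changed sign. The authors' table changed nothing, being the same values. The mean over probes could not change the differences of the 6 genes, which have 1 probe each. Normexp adds an offset that pulls dim genes together by construction; the causes of the other shifts were not tested. Low signal limits Notch2, Hes1, Hes5 and Dll1, and in the pathway list Dlk1 on the NSC arrays.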
